A study of Mus musculus with 36 samples.

Results

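The methylated intronic clusters were 306 stretches of densely listed CpG positions that lay in introns and carried a high level of DNA methylation in the Control samples of a mouse pre-B cell line. A CpG cluster was a run of at least 20 listed positions at most 100 bp apart, and its level was the mean over the positions with a value in all 36 samples. The tables gave 18009 such clusters, of which 16734 had at least 1 complete position. A cluster was kept when it lay on an autosome, inside a protein-coding gene of GENCODE M21 on GRCm38, outside every annotated exon, over 1 kb from every annotated transcription start, and had a mean level over 80% across the 18 Control columns. The first conditions were met by 403 clusters, of which 306 (75.9%) passed the limit on the level, 43 lay between 20% and 80%, and 54 lay at or under 20%. Since the clusters were selected on the Control mean, their Control levels are given as a description, whereas the Ikaros levels and the changes over time were not used in the choice.

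Reduced representation bisulfite sequencing (RRBS) was performed on B3 cells, a mouse line at the pre-B stage of B-cell development, carrying 1 of 2 MSCV retroviral constructs. The Ikaros series expressed HA-tagged Ikaros fused to the ERt2 ligand-binding domain with an IRES-GFP reporter, and the Control series carried ERt2-IRES-GFP without Ikaros. Both were sorted pools of GFP-positive cells, and both received 4-OHT, which brings ERt2 fusion proteins into the nucleus. Cells were taken at 0, 2, 6, 12, 18 and 24 h with 3 replicates per condition, 18 samples per series. The labels give a 4-OHT dose of 0.5 µM for every sample, including 0 h, where the study describes untreated cells. Each level is an average over the cells of a pool and their alleles. The retroviral promoter expresses the fusion protein at all times, so cells at 0 h already contained it.

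In mammals, DNA methyltransferases place methyl groups on the cytosine of CG dinucleotides, and most CGs outside promoters and enhancers are methylated. Introns of genes, active or silent, usually share this state, while CpG islands at transcription starts are usually free of it. CpG-rich stretches away from starts can be methylated in one cell type and free of methylation in another. Ikaros is a zinc finger transcription factor of lymphoid development that binds the core TGGGAA and recruits chromatin-remodelling complexes.

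The sequences of 5 clusters are given in GRCm38 on the forward strand. Capitals mark each CG dinucleotide lying whole within the window with a listed position on at least one strand. Dnajc22 and Foxf2 are the clusters with the smallest p among those that passed the test of the series difference, described below, with higher levels in Ikaros. Dnajc22 encodes a J-domain cochaperone, and the window is chr15:99094848-99095055 in the first of 2 introns. Foxf2 encodes a forkhead transcription factor, and the window is chr13:31629596-31629799 in its only intron. Myo1e encodes a class I myosin and is the only cluster that passed it with lower levels in Ikaros. Its window, chr9:70211725-70212024, is the central part of a longer cluster in the first of 28 introns. Prdm11 and Wnt3 hold the clusters with the highest CpG density. Prdm11 belongs to the PR-domain family, and its window is chr2:93015022-93015183 in the first of 6 introns. Wnt3 encodes a secreted developmental signal, and its window is chr11:103809846-103810006 in the second of 4 introns.
Dnajc22: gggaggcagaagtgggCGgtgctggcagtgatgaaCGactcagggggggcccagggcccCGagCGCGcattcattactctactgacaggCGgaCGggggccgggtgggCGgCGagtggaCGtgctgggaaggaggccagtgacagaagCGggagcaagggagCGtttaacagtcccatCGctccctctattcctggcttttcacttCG
Foxf2: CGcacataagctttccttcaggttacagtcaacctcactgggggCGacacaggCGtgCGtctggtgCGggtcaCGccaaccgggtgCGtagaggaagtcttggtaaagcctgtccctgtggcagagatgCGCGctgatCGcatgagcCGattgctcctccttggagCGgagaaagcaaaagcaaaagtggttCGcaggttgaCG
Myo1e: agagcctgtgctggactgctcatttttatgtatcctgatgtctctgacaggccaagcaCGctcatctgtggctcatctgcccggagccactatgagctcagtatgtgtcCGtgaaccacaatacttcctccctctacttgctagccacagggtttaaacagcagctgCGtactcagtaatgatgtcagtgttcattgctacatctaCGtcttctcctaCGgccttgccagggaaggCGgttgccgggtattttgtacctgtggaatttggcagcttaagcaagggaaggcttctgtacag
Prdm11: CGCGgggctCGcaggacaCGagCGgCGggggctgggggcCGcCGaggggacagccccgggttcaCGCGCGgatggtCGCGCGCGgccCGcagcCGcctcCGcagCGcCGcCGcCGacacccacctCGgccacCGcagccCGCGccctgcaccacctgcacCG
Wnt3: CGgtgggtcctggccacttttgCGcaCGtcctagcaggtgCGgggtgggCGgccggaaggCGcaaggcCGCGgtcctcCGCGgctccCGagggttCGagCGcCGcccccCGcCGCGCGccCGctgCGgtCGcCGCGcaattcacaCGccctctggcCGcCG

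The windows show how differently the CGs were spaced. The Prdm11 window held 28 CGs in 162 bases and the Wnt3 window 27 in 161, against 8 in the 300 bases of Myo1e. The CG in lower case within these windows lay in CCGG, the sequence cut by MspI in RRBS. Over all 306 clusters, 56 of 848 CGs within CCGG were listed (6.60%), against 5943 of 6336 other CGs (93.8%). All 306 clusters held CCGG within 300 bases around their centre. The levels below are therefore those of CGs beside the cut site and rarely those of the site itself.

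The clusters were short and moderately CpG-rich. Their median length was 310.5 bp, with a range from 83 to 1111 bp, and they held a median of 29 listed positions on 17 dinucleotides. The median CpG density was 6.77 per 100 bp (range 3.19 to 17.2) at a median GC content of 62.5%. Methylated clusters over coding exons (1168) and methylated intergenic clusters (641), chosen by the same limit, had medians of 6.84 and 6.65 CGs per 100 bp. The intronic clusters lay a median of 6041 bp from the nearest transcription start, compared with 3870 bp for the coding-exon and 11777 bp for the intergenic clusters.

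Repeats covered part of the set. In 40 clusters (13.1%) more than 50% of the bases were soft-masked as repeats, compared with 32.3% of the intergenic clusters and 0.171% of the coding-exon clusters. These 40 lay farther from transcription starts, at a median of 25074 bp against 4514 bp for the rest. Their median Ikaros level was 93.4%, against 95.8% in the other intronic clusters. In 151 clusters (49.3%) no base was masked. These figures place the intronic set between the other classes and were not tested.

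First introns held 146 clusters when each gene was represented by its transcript with most exons, and 169 clusters (55.2%) lay in the first intron of at least one transcript. The median Ikaros level was 94.9% in first introns and 96.2% in later ones, over ranges from 78.7% to 98.7% and from 82.0% to 98.5%. Distance to the start went with little change of level. The medians were 95.2% at 1 to 2 kb, 95.8% at 2 to 5 kb, 95.1% at 5 to 20 kb and 96.1% beyond 20 kb. An unmethylated cluster, with a Control mean under 20%, lay within 2 kb of 4 of the 306 and within 2 to 10 kb of a further 18.

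The level varied more with CpG density than with distance. The median Ikaros level was 92.3% in the 77 clusters with the lowest density, 94.8% and 95.6% in the following groups of 76, and 97.2% in the 77 densest. Across the 306 clusters, Pearson's r between density and Ikaros level was 0.38 and Spearman's coefficient 0.39. The clusters share libraries and smoothing and are not independent, so this is a description. The corresponding coefficients for the logarithm of the distance to the start were -0.04 and -0.0025.

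The densest clusters and those with the most positions had means over 97% in both series. Prdm11, with 17.2 CGs per 100 bp, had Control levels from 96.6% to 99.6% (median 98.9%) and Ikaros levels from 97.4% to 99.7% (median 98.6%). The Wnt3 window had 97.1% ± 1.26 in Control and 97.2% ± 1.11 in Ikaros samples (SD, n = 18). The third densest cluster, in Sh3pxd2a, which encodes an adaptor of invadopodia, had 97.4% ± 1.46 and 98.0% ± 1.60. The series overlapped in each of these clusters.

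The cluster with the most positions, 132 and all complete, lay in Unc45b, a myosin chaperone gene of muscle, at chr11:82931309-82932028. Its Control levels ranged from 97.6% to 99.3% (median 98.6%) and its Ikaros levels from 97.5% to 99.8% (median 98.5%). Arhgap23 followed with 121 positions and 97.1% ± 0.801 in Control and 97.5% ± 0.803 in Ikaros samples. Pax7, a paired-box gene of muscle stem cells, had 119 positions and 97.7% ± 1.38 and 97.6% ± 1.17. The lowest samples of Pax7, at 92.5% in Control and 93.6% in Ikaros, lay farther from the median than those of Unc45b.

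**Figure D1:**
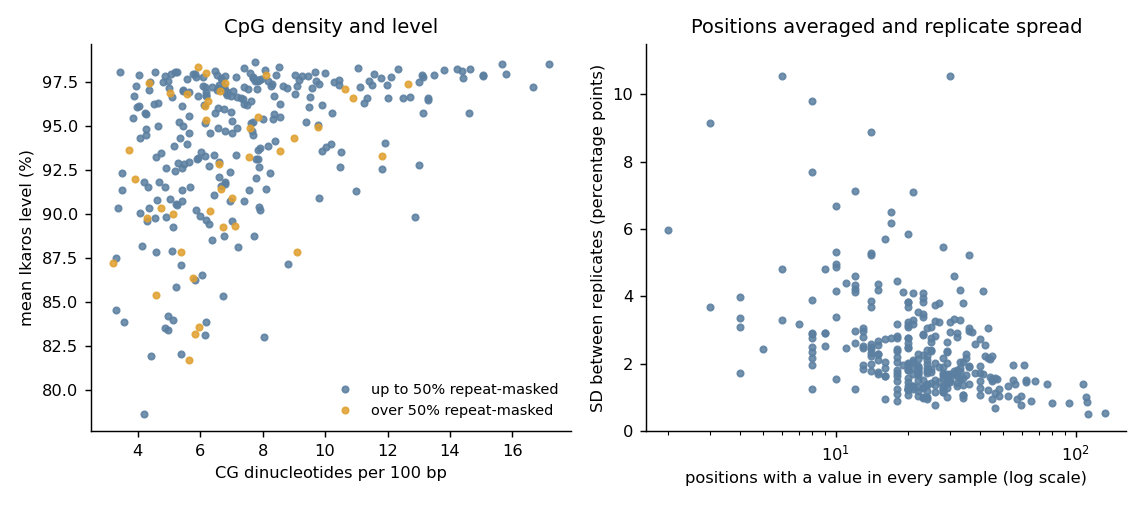
Left, mean Ikaros level (%) against CG dinucleotides per 100 bp for each of the 306 clusters, with clusters over 50% repeat-masked in orange; clusters under 87% had densities in the lower part of the range. Right, SD between replicates within conditions (percentage points) against the number of positions with a value in every sample (log scale); the widest SDs, up to 10.6 points, occurred at few positions, with the Dthd1 cluster as an exception.

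The Ikaros levels, which the rule did not use, were high throughout. Of the 306 clusters, 305 also had an Ikaros mean over 80%. The Ikaros mean lay over 95% in 168 clusters (54.9%), between 90% and 95% in 92, between 85% and 90% in 31 and between 80% and 85% in 14. The exception was the cluster of Tnr, which encodes the extracellular matrix protein tenascin-R, at chr1:159670823-159671178 in the first of 22 introns. Its Ikaros samples ranged from 70.3% to 84.7% with a median of 78.9%, and its Control samples from 74.0% to 87.3% with a median of 79.9%. The series overlapped over most of this range. The next lowest Ikaros means belonged to Smok3c, a sperm motility kinase gene, with 81.7% ± 4.89 (SD, n = 18), and Hif3a, a hypoxia-inducible factor gene, with 82.0% ± 4.24. The Smok3c cluster was repeat-masked over 100% of its length.

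Close to the limit, membership was a matter of small differences. The lowest Control means inside were those of Cdh22 (80.2% ± 1.81, SD, n = 18), Ccdc150 (80.3% ± 8.66) and Tnr (80.3% ± 3.54). The highest outside were those of Onecut2 (79.3% ± 6.49), a further cluster in Dnajc22 (79.3% ± 5.97) and Ptpru (78.4% ± 3.42). Dnajc22 also held 2 clusters inside the limit. Each of these means lay within 1 SD of the limit. The excluded Dnajc22 cluster, chr15:99096578-99097341, had Control levels from 69.9% to 96.9% with a median of 77.8%, and Ikaros levels from 75.0% to 98.8% with a median of 86.6%.

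Replicates agreed to a few percentage points. The SD between replicates of a condition had a median over the clusters of 2.02 percentage points, with a lowest value of 0.510 and a highest of 10.6. Clusters averaged over few complete positions varied more, as the plot of density and spread shows, and 27 clusters had fewer than 10 such positions. The 3 largest SDs belonged to Tbc1d16, a Rab GTPase-activating protein gene, with 6 complete positions, to Dthd1, a death-domain gene whose cluster was repeat-masked over 100% of its length, and to Onecut3, a homeobox gene, with 8 complete positions. The depth per position is unknown, since the deposited tables contain no read counts and the study gives an approximate read total per sample. The spread between replicates is the only measure of precision here.

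Within a cluster the methylation was mostly even. Of the 8114 complete positions in the set, 7005 (86.3%) had an Ikaros mean over 90% and 10 had one under 50%. The difference between the highest and lowest position had a median of 4.52 percentage points, and it was under 5 points in 158 clusters and over 20 points in 45. The deposited levels are smoothed over neighbouring positions, which narrows these differences. The median Ikaros level of the positions was 96.8% in the 50 bp before the cluster centre and 96.6% in the 50 bp after it, and 97.0% and 97.1% beyond 200 bp on either side.

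The widest internal range was found in Zap70, which encodes a T-cell receptor kinase. In this cluster, chr1:36781489-36781993 in the last of 12 introns, single positions ranged from 28.4% to 97.3% in the Ikaros mean around a cluster mean of 88.2%. Next were Fgfr1, a fibroblast growth factor receptor gene (40.9% to 96.6%), and Cyp26b1, a retinoic acid-degrading enzyme gene (43.2% to 98.5%). Hoxc4, a homeobox gene, followed with 42.9% to 97.8%. The cluster means were 84.2% in Fgfr1, 96.0% in Cyp26b1 and 83.4% in Hoxc4, so the low positions weighed little in Cyp26b1. These clusters were named after their values were seen.

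The 306 clusters fell on 268 gene symbols. Most genes held a single cluster, and Gm20388, Cdh22, Lhx4, Ostm1, Shh and Wnt3 held 3 or more. Gm20388 counted 10 clusters because its gene model has a first intron of 4.38 Mb on chromosome 8 that contains other genes. In 5 of these clusters Gm20388 was the only protein-coding gene, so their place in an intron rests on this gene model. The levels of 1 gene's clusters could lie far apart. The 4 clusters of Cdh22, a cadherin gene, had Ikaros means from 82.0% to 97.8% within 36.8 kb.

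In Shh, which encodes the morphogen sonic hedgehog, 3 clusters within 5.41 kb had Ikaros means of 85.9% ± 4.27, 97.8% ± 1.54 and 96.6% ± 4.55 (SD, n = 18). In Wnt3, 3 clusters within 0.746 kb were all high, from 97.2% to 98.1%. The Ikaros means were 92.3% to 96.3% in the LIM-homeobox gene Lhx4. They were 84.6% to 97.4% in Ostm1, which encodes a lysosomal membrane protein.

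**Figure D2:**
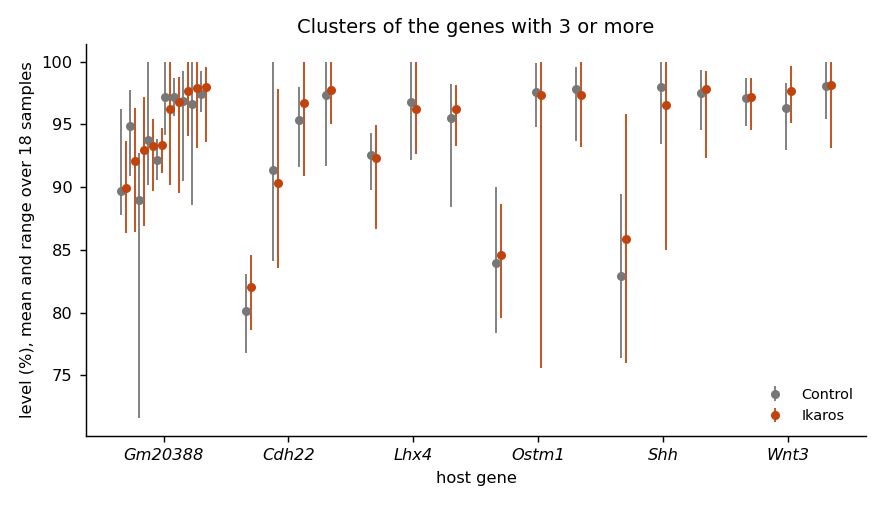
Level (%) of each cluster in the 6 genes with 3 or more clusters, as the mean (point) and range (bar) over the 18 Control (grey) and 18 Ikaros (orange) samples. Cdh22, Ostm1 and Shh each combined a cluster under 86% with clusters over 95%, whereas the 3 Wnt3 clusters had means over 96%.

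Part of the clusters lay in genes known as regulators of embryonic development. These groups were made after the gene names had been seen, and their share among all genes was not determined. In the first, 29 clusters lay in 25 homeobox and Pax genes, among them Pax3, Nkx2-5 and Lhx2. Their Ikaros means ranged from 83.4% to 98.3% with a median of 95.5%. Another 22 clusters lay in 17 further developmental transcription factor genes such as Gata4, Sim1 and Tbx5 (83.9% to 98.7%, median 95.8%). Genes of secreted developmental signals and their receptors, such as Shh, Wnt3 and Jag1, held 23 clusters (84.2% to 98.4%, median 96.5%). Beside the median of 95.5% over all 306, these groups did not stand out in level.

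Genes of T cells and other blood lineages formed a smaller group of 9 clusters in 8 genes, also named after the gene names were seen, with Ikaros means from 88.2% to 97.2%. In Bcl11b, a transcription factor gene of T-cell commitment, the level was 93.6% ± 1.54 in Control and 93.9% ± 1.28 in Ikaros samples (SD, n = 18). Cd247, the gene of the T-cell receptor zeta chain, had 95.0% ± 2.68 and 95.0% ± 2.19. Gata2, a gene of haematopoietic progenitors, had 88.4% ± 2.11 and 88.2% ± 2.95.

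Few genes of the B-cell and other lists had an intronic cluster that could be measured. Of 37 B-lineage transcription factor genes, 7 had an intronic cluster of any level under the same rule on position and 2 had a methylated one. The cluster of Ebf1, an early B-cell factor gene, lay at chr11:44665363-44665525 in intron 6 of 15. Its Control samples ranged from 95.5% to 100% (median 98.8%) and its Ikaros samples from 94.3% to 100% (median 97.6%). The cluster of Tcf4, an E-protein gene, had 95.3% ± 1.23 in Control and 95.6% ± 1.92 in Ikaros samples. Both clusters stayed high in all samples.

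Of 54 genes of pre-B receptor, IL-7 and PI3K signalling, 1 had an intronic cluster and it was methylated. It lay in Rptor, which encodes the mTORC1 subunit raptor, with 92.5% ± 3.61 in Control and 92.0% ± 2.61 in Ikaros samples. Of 64 chromatin and DNA methylation genes, 4 had an intronic cluster and Prdm16, a PR-domain transcriptional regulator gene, held 2 methylated ones. These were at 94.7% ± 4.48 and 83.6% ± 4.72 in the Ikaros samples. Of 194 ion channel and synapse genes, 8 had an intronic cluster and 4 a methylated one. The metabotropic glutamate receptor gene Grm4 (97.5% ± 1.36), the kainate receptor gene Grik4 (97.3% ± 1.74) and the sodium channel subunit gene Scn4b (97.2% ± 0.960) had high Ikaros levels. Grik3, another kainate receptor gene, had 87.5% ± 10.8 over 3 complete positions.

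Before the comparison of the series, the libraries themselves differed. Over all listed positions, Control 0 h replicate 1 lacked 11.6% of the values, whereas the median of the Control samples was 0.323%. Within the intronic clusters this library lacked 18.1%. Levels at exactly 100% made up 4.47% to 22.3% of the values of the clusters in Control samples (median 8.35%) and 5.09% to 31.3% in Ikaros samples (median 9.31%), the highest being Ikaros 24 h replicate 2. The series overlapped in this share, with means of 9.17% in Control and 13.1% in Ikaros samples. At 24 h they lay apart, at 4.47% to 10.2% in Control and 19.2% to 31.3% in Ikaros samples, and they overlapped at the other time points.

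The mean over the 306 clusters was 93.8% ± 0.224 in the Control and 94.1% ± 0.247 in the Ikaros samples (SD, n = 18 each). The Control samples ranged from 93.2% to 94.1% with a median of 93.8%, and the Ikaros samples from 93.7% to 94.6% with a median of 94.1%. The series overlapped, and no test is given because the Control mean chose the clusters. Coding-exon clusters had 95.3% ± 0.150 and 95.4% ± 0.199, and intergenic clusters 93.5% ± 0.216 and 93.7% ± 0.242. At each time point the Ikaros mean was the higher one, with condition means from 93.6% to 93.9% in Control and from 94.1% to 94.2% in Ikaros samples.

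**Figure D3:**
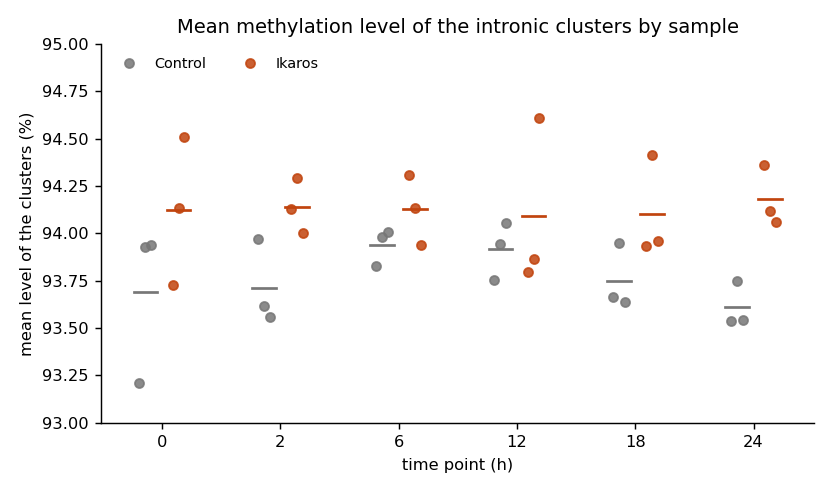
Mean methylation level (%) over the 306 clusters in each sample by time point (h), Control in grey and Ikaros in orange, with lines at the means of 3 replicates; the axis runs from 93% to 95%. Control points lie between 93.2% and 94.1% and Ikaros points between 93.7% and 94.6%, with overlap.

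The difference between the series was tested for each cluster on M-values, the log2 ratio of methylated to unmethylated level, with time point as a factor. The study describes sorted cells kept as frozen vials and reports no repeat transductions. The SEs and p below therefore measure spread between cultures, and a difference of construct cannot be told apart from one of sorted pool. Over all 16734 clusters, limma called 810 (4.84%) at an adjusted p under 0.05, 621 higher in Ikaros (3.71%) and 189 lower (1.13%). Of the 306 intronic clusters 15 were called (4.90%), 14 higher in Ikaros (4.58%) and 1 lower (0.327%). Nothing is read from these shares, because the Control mean of the same contrast chose the clusters. The median M-value difference, Ikaros minus Control, was 0.09 over the 306 clusters and 0.07 over the 7376 clusters of any position with a Control mean over 80%.

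Most clusters differed little in level. Ikaros and Control means lay within 1 percentage point of each other in 203 clusters and more than 5 points apart in 7. The Ikaros mean was more than 2 points higher in 35 clusters and more than 2 points lower in 11. In none of the 306 were the sample levels of the series separated without overlap, a pattern found in 0.0478% of all clusters.

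**Figure D4:**
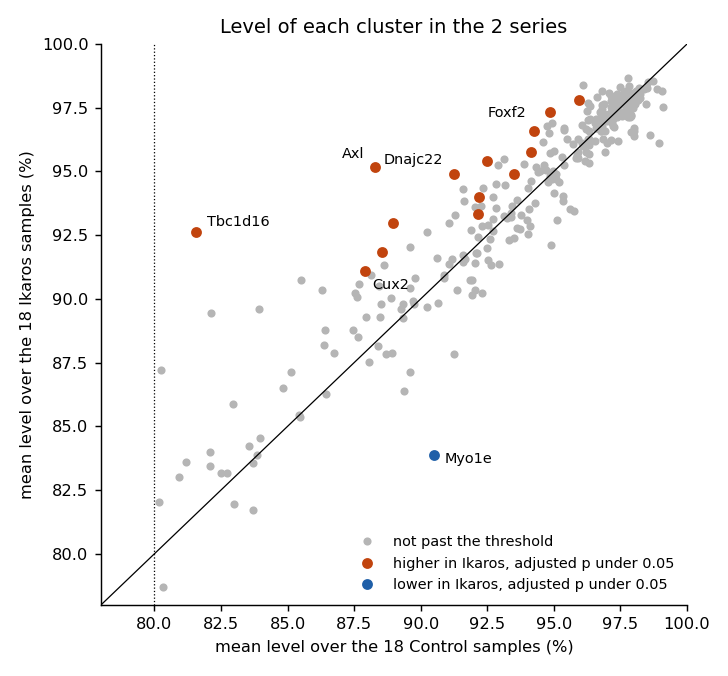
Mean level over the 18 Ikaros samples (%) against the mean over the 18 Control samples (%) for each of the 306 clusters, with the line of equality and a dotted line at the 80% limit. Clusters past an adjusted p of 0.05 (limma) are coloured, 14 higher in Ikaros in orange and 1 lower, Myo1e, in blue; most of the other points lie near the line.

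The Dnajc22 cluster, whose sequence is shown above, lay 1678 bp from the nearest start. Its Control levels ranged from 88.9% to 95.0% with a median of 91.2%, and its Ikaros levels from 91.9% to 97.1% with a median of 94.9%. The highest Control value came from Control 24 h replicate 2, and the ranges overlapped between 91.9% and 95.0%. Already at 0 h the series lay apart, with Control samples at 91.1% to 91.9% and Ikaros samples at 95.4% to 96.3%. The M-value difference was 0.89 ± 0.12 (SE, limma adjusted p = 1.03e-05). The neighbouring cluster of the same intron that fell just below the limit had a difference of 0.70 ± 0.22 (limma adjusted p = 0.0612), which did not pass.

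In Foxf2, Control levels ranged from 90.8% to 96.8% (median 94.4%) and Ikaros levels from 93.1% to 98.2% (median 96.8%). The difference in M-value was 0.82 ± 0.15 (SE, limma adjusted p = 0.000384). In Axl, which encodes a TAM family receptor tyrosine kinase, the cluster chr7:25781644-25781878 lay in intron 4 of 19. Its Control levels spread from 75.4% to 97.2% (median 88.9%) and its Ikaros levels from 86.3% to 99.3% (median 94.7%). The difference was 1.59 ± 0.31 (SE, limma adjusted p = 0.00114), with 12 of 30 positions complete. With the shares of missing and extreme levels in each sample as covariates it was 0.91 and did not pass (limma adjusted p = 0.395). Foxf2 did not pass that fit either (0.64, limma adjusted p = 0.0947), nor the fit without replicate 3 (limma adjusted p = 0.079). Both clusters were higher in Ikaros with overlapping ranges, that of Axl being far wider. Already at 0 h the Axl samples lay apart, at 78.6% to 88.8% in Control and 93.1% to 99.3% in Ikaros, whereas those of Foxf2 overlapped.

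Nphp4, a gene of the ciliary transition zone, held the cluster chr4:152547911-152548151 in intron 18 of 29. Control levels ranged from 90.3% to 96.7% (median 95.0%) and Ikaros levels from 93.1% to 100% (median 97.7%), with a difference of 1.06 ± 0.22 (SE, limma adjusted p = 0.00238). Over all its listed positions, including those with missing values, the means were 95.3% and 95.5% and the cluster did not pass. In the gene model Gm49711 at chr16:92158516-92158683, Control levels ranged from 93.2% to 98.7% (median 96.1%) and Ikaros levels from 95.4% to 100% (median 97.9%), with a difference of 0.89 ± 0.20 (SE, limma adjusted p = 0.00423). In both clusters the ranges of the series overlapped, also at 0 h. A level of 100% was reached by 1 Ikaros sample in Nphp4, 24 h replicate 2, and by 3 in Gm49711. With the shares of missing and extreme levels as covariates neither cluster passed (limma adjusted p = 0.178 in Nphp4 and 0.149 in Gm49711).

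Myo1e, at chr9:70211665-70212084, was the 1 cluster called lower in Ikaros. Its Control levels ranged from 68.7% to 94.9% (median 92.4%), the lowest being Control 0 h replicate 1, and its Ikaros levels from 73.3% to 88.2% (median 83.9%). The Ikaros means were 85.3% at 0 h, 88.0% at 2 h, 81.8% at 6 h, 78.0% at 12 h, 83.6% at 18 h and 86.4% at 24 h, against 85.2%, 94.5%, 90.4%, 93.1%, 91.2% and 88.4% in Control (n = 3 each). The series lay apart at 2, 6, 12 and 18 h and overlapped at 0 and 24 h, each time through 1 Control library. At 0 h Control replicate 1 was at 68.7%, the other Control samples at 93.8% and 93.2%, and the Ikaros samples at 83.5% to 87.7%. At 24 h Control replicate 2 was at 82.4%, the other Control samples at 91.7% and 91.1%, and the Ikaros samples at 83.4% to 88.1%. The M-value difference was -0.90 ± 0.23 (SE, limma adjusted p = 0.0133). Of its 21 positions 9 were complete, and over all 21 the means were 90.8% and 88.6% and the cluster did not pass.

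**Figure D5:**
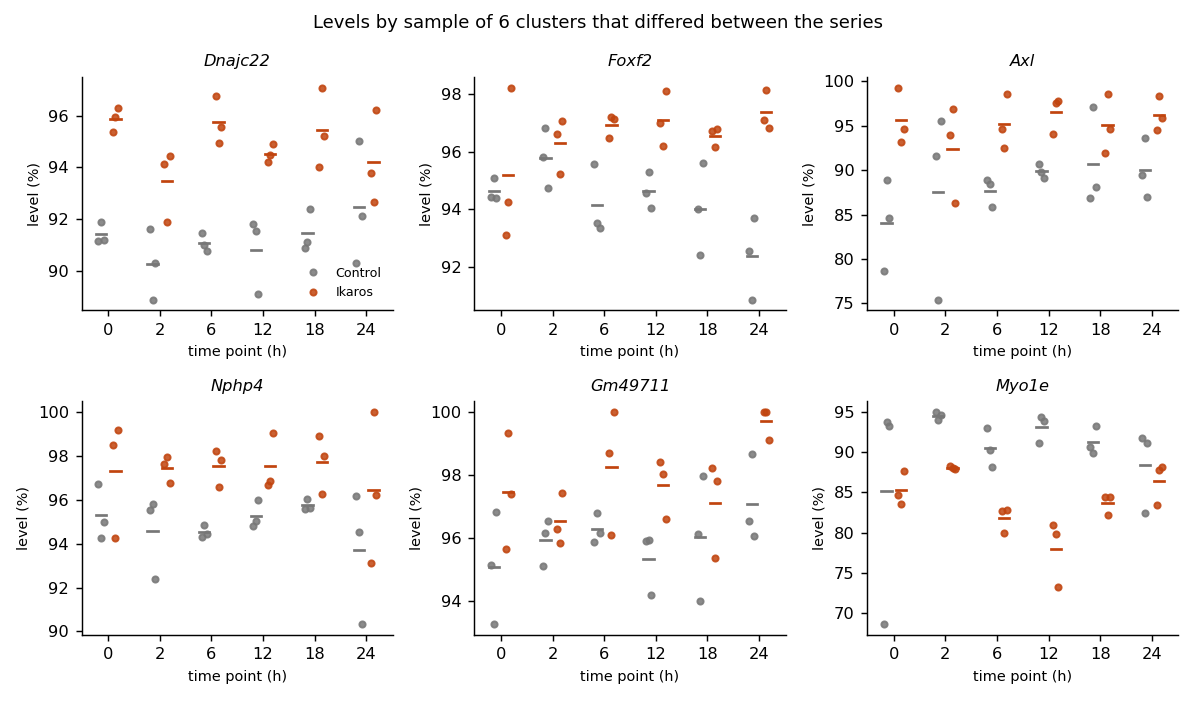
Level (%) in each sample by time point (h) for the 5 clusters with the smallest p higher in Ikaros and for Myo1e, the 1 cluster called lower; points are samples, lines the means of 3 replicates, and the vertical axes differ between panels. The Ikaros samples of Dnajc22 lie between 91.9% and 97.1%, those of Control between 88.9% and 95.0%, and in Myo1e the series are farthest apart at 12 h.

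The other 9 clusters called, all higher in Ikaros, lay in Gm20388 (2, 1 of them also in Gse1), Tbc1d16, Bahcc1, Cux2, Wnt3a, Grip1, Zfp13 and Rtn4rl1. Their M-value differences ranged from 0.31 in Gm20388 to 1.52 in Tbc1d16, and their limma adjusted p from 0.00996 to 0.0491. The largest difference in level was that of Tbc1d16. Its Control levels ranged from 33.0% to 97.6% (median 85.2%) and its Ikaros levels from 84.2% to 100% (median 92.4%). The lowest Control value stood far below the rest, and only 6 of 30 positions were complete. Over all 30 positions the means were 85.3% and 89.5%, the M-value difference was 0.42 and the cluster did not pass (limma adjusted p = 0.629). In Cux2, a homeobox gene, the Control levels ranged from 66.4% to 90.9% (median 89.2%) and the Ikaros levels from 86.8% to 93.4% (median 91.2%).

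Single libraries weighed on these clusters. Averaged over the 14 clusters higher in Ikaros, Control 0 h replicate 1 was at 84.6%, whereas the median of the Control samples was 91.2% and the Ikaros samples ranged from 93.4% to 95.4%. Control 24 h replicate 2, at 93.7%, lay within the Ikaros range and was the highest Control sample in 8 of the 14. Without these libraries and Ikaros 24 h replicate 2, an alternative chosen after seeing the data, 18 clusters were called, 17 higher and 1 lower, including all 15, and the share over all clusters was 5.53%. With the shares of missing and extreme levels of each sample as covariates 3 were called, namely Dnajc22, Wnt3a and Cux2, beside 2.00% of all clusters. Of these 3, Wnt3a lost the threshold under 17 other alternatives and Cux2 under 6 (limma adjusted p up to 0.748), whereas Dnajc22 kept it. Levels at exactly 0% or 100% were counted over all listed positions, not only those of the clusters. They made up 27.9% ± 4.89 of the values in Control and 36.2% ± 7.63 in Ikaros samples (SD, n = 18). Their part in the other differences was not tested further.

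The count also changed when the samples of 1 replicate number were left out in all conditions. Without replicate 1 there were 5 called clusters, without replicate 2 there were 11 (9 higher and 2 lower, 7 of them among the 15), and without replicate 3 there were 2. Myo1e did not pass in any of these fits (limma adjusted p = 0.0885 to 0.123), so the 2 lower clusters without replicate 2 were others. Over all clusters the called share fell to 2.38%, 3.24% and 2.20%, respectively. Leaving out single samples gave 11 to 17 called clusters, beside 4.27% to 5.16% of all clusters.

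Changes after 4-OHT were tested within each series and as a difference in course. In the Ikaros series limma called none of the 306 clusters (0% of all clusters), in the Control series none (0.012%, 2 of 16734) and for a different course none (0%). At an unadjusted p under 0.05 there were 17, 17 and 13 clusters, or 5.56%, 5.56% and 4.25%, beside 5.22%, 4.83% and 5.12% of all clusters. The smallest unadjusted p in the Ikaros series belonged to Rimbp2, which encodes a presynaptic scaffold protein (limma adjusted p = 0.516). At chr5:128781778-128782248 its Ikaros replicates had 84.4%, 78.3% and 77.8% at 0 h and 87.8%, 86.5% and 91.0% at 24 h, against 77.8%, 86.9% and 83.0% and 80.6%, 84.4% and 82.8% in Control. The Ikaros values at 24 h lay above those at 0 h, the Control values overlapped, and the cluster did not pass. These tests do not show that the levels were unchanged.

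The Ikaros core TGGGAA, on either strand, was present in the central 300 bases of 75 of the 306 clusters (24.5%). It was present in 16.1% of all 18009 clusters, 15.3% of the coding-exon and 20.4% of the intergenic ones. The E-box CAGGTG, bound by E proteins among others, was present in 18.3% of the intronic clusters and 23.3% of all clusters. Among the windows printed above, Dnajc22 held TGGGAA once, and Prdm11 and Wnt3 each held CAGGTG once. Clusters with and without TGGGAA had similar Ikaros medians of 95.4% and 95.7%. These matches are letters in the reference sequence, and no binding was measured here.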

How the data were processed

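RRBS was measured in 36 samples of B3 cells. The authors aligned bisulfite reads with Bismark 0.10.1 to mm10 (GRCm38), per the labels, and smoothed methylation levels within CpG clusters with BiSeq. The deposited tables give smoothed levels per position (fraction, 0 to 1), shown here in percent, and M-values on a log2 scale that the authors computed from levels limited to 0.01 to 0.99. Smoothing and these limits compress differences near full methylation. Neither table holds read counts.

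The clusters, gene lists and rules were chosen with earlier results of these data known. Annotation came from GENCODE M21 and sequence and soft-masking from the RefSeq release of GRCm38, which matches the build of the files. Cluster means of the M-values were fitted in R 4.3.3 with limma 3.58.1 over all 16734 clusters, Benjamini-Hochberg adjusted, with time as a factor (series difference) or an F test over time within a series or over the interaction. The steps were tested on simulated data. Other steps used Python 3.11.15 with numpy 2.4.6 and pandas 2.3.3.

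Per the labels, replicate 1 is batch 1 and replicate 3 is batch 4 in every condition, whereas replicate 2 is batch 2 at 0 h and batch 3 later. The numbers thus pair the samples, except that replicate 2 at 0 h is tied across the series but not to later times. According to the study, 0 h cells were collected separately, in 3 batches, so pairing 0 h with later times rests on the labels. The block and the batch were both fitted as alternatives. Deviations of same-numbered samples had a mean correlation of -0.000326 over 198 pairs.

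Clusters were named by rules: the 5 smallest p in each direction among those called, those next to the 80% limit, those in the gene lists (B-lineage transcription factors, signalling, chromatin, ion channels), the most positions, density, replicate spread, genes with most clusters, and the lowest Ikaros means.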

Additional observations from a re-analysis of the deposited data

How the results depend on the processing

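The count of 15 clusters that differed between the series was 15 with the replicate block, with the batch of the labels and with levels in place of M-values, where 11 of the 15 were shared, and the block changed no other call. It was 11 over all listed positions and 9 with the median over positions, beside 4.52% and 3.24% of all clusters. With the shares of missing and extreme levels as covariates 3 were called. Leaving out single samples or 1 replicate number gave 2 to 17, and leaving out the 3 libraries that stand apart together, chosen after seeing the data, gave 18. The cause of these shifts was not tested, although fewer samples were fitted where some were left out. None of the 15 called clusters changed direction under the alternatives run for them, which were not run for the other clusters named. Dnajc22 stayed past the threshold under all of them, with an adjusted p (limma) up to 0.0114, whereas Rtn4rl1 lost it under 34, Zfp13 under 26, Grip1 under 23 and Wnt3a under 17, many of these with 1 sample left out. The counts for change over time stayed at 0 in both series, and the count for a different course ranged from 0 to 1, the 1 being Fgfr1 without Ikaros 24 h replicate 3 (limma adjusted p = 0.0321).

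Requiring 20 distinct CG dinucleotides left 112 of the 306 clusters, with means of 94.0% in Control and 94.4% in Ikaros samples. A limit of 90% left 247, with 95.6% in both series, and choosing by the Ikaros mean gave 310, with 93.5% in Control samples. The other alternatives moved these means by less than 1 SD. Without any single sample the means were 93.75% to 93.80% in Control and 94.10% to 94.15% in Ikaros samples. No read counts were available here, so depth sets an unknown limit on each value.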

Other observations

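On the X chromosome, which the rule leaves out, 16 intronic clusters lay over 1 kb from every start, and 13 of them lay in Bcor, a gene of a Polycomb-associated corepressor. Bcor combined both states: 10 of its clusters had Ikaros means up to 9.96%, while the remaining 3, at chrX:12140074-12140592, chrX:12155988-12156387 and chrX:12158426-12158606, had 92.6%, 83.8% and 93.2%. A cluster in Nhsl2 had 97.8%.

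A further 78 autosomal intronic clusters had no position with a value in all samples. Over the values present, 5 of them had a Control mean over 80%, and the Control means ranged from 0.0559% to 97.7%. They were not part of the 306 clusters.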
